A study of Mus musculus with 6 samples.

Results

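The genes examined were the receptors Egfr, Erbb2 and Erbb3 and the ligands Areg, Ereg, Hbegf, Tgfa and Btc, taken by name from the platform annotation of a Clariom S mouse array. Of these 8 genes, 7 were measured, each by 1 of 22206 probe sets, which carried the symbols of 19505 genes in all. No probe set carried the symbol or the gene identifier of Areg (amphiregulin), and it was not analysed here. The RNA came from ID8, a mouse ovarian cancer line derived from ovarian surface epithelium. All cultures were deprived of serum for 24 h. One group of 3 cultures was then left unstimulated, and the other group of 3 received 200 ng/mL of recombinant CCL6 for 6 h. CCL6 is a macrophage chemokine that binds the receptor CCR1, and the arrays were made to find pathways behind migration toward it. Each culture had 1 array, and precision is limited by having 3 of them per group. The labels call the cultures biological replicates, so p-values measure the spread between these cultures of 1 line.

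The EGF receptor family consists of EGFR, ERBB2, ERBB3 and ERBB4, receptors that span the cell membrane and pair with each other. EGF, TGF-alpha, amphiregulin and epigen bind EGFR, whereas betacellulin, epiregulin and HB-EGF bind EGFR and ERBB4. The neuregulins NRG1 and NRG2 bind ERBB3 and ERBB4. ERBB2 has no ligand of its own and serves as a partner, and ERBB3 has little kinase activity and signals through partners. The ligands are made as membrane proteins and are cut free by ADAM proteases. The active receptors feed the RAS-ERK and PI3K-AKT pathways, and the family is well studied in ovarian and other epithelial cancers.

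Levels are log2 values after RMA, which corrects background, equalises the arrays and gives 1 value per probe set. Base 2 was inferred from the range of the values, and on that scale a difference of 1 is a 2-fold difference. A level of 4.85 was taken as background. It is the value below which lay 95% of the means of 1450 olfactory, vomeronasal and taste receptor genes. A probe set counted as above background if the mean of at least 1 group exceeded it, as 12544 of 22206 (56.5%) did. Probe sets of different genes bind with different strength, so levels were set against this background and between arrays, never gene against gene. Array medians lay between 5.42 and 5.49. Of 10 measured markers of ovarian surface and mesothelial epithelium 8 lay above background, among them Krt8, Krt18, Krt19, Wt1, Msln and Upk3b, whereas Epcam and Pax8 did not. Of the 8, Krt7 passed only through the CCL6 group, with a mean of 5.09 against 4.78 in unstimulated cultures. None of 5 macrophage markers or 4 endothelial markers lay above background. The macrophage list averaged 3.55 to 3.63 in unstimulated cultures and 3.58 to 3.78 after CCL6. Of 4 fibroblast markers, Col1a1 and Dcn were above background while Col1a2 and Thy1 were not. A second source of variation crossed the treatment. Proliferation genes (11 measured) averaged 12.8 to 13.2 on 3 arrays, which were unstimulated replicate 3 with CCL6 replicates 1 and 2, and 11.3 to 11.7 on the rest.

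At baseline and after CCL6, ID8 cells had signal for all 3 measured receptors and for Ereg, Hbegf and Btc. Each was above background on 6 of 6 arrays, unstimulated and treated. Tgfa was at the edge of detection and exceeded the background level on 3 of 6 arrays. Without CCL6 it did so only in replicate 3, at 5.21 against 4.78 and 4.71 in replicates 1 and 2. None of the 7 genes changed with CCL6 at an adjusted p under 0.05 (limma), where 0% of all probe sets did. None passed an unadjusted p under 0.05, which 3.08% of all probe sets did, and unadjusted p ran from 0.0656 for Hbegf to 0.850 for Tgfa. With the methods' t-test on the same values, 1 of 7 had an unadjusted p under 0.05 against 3.66% of all probe sets. None of the 7 passed after Benjamini-Hochberg adjustment, which 0.0045% of all probe sets did. The groups of 1 member, Btc, were lower after CCL6 without overlap, against 4.41% of all probe sets. No member was higher without overlap, against 3.77%. The median log2 difference of the 7 genes was 0.06, with 4 higher and 3 lower on average, and that of all probe sets was -0.01. The RNA came from whole cultures, so that fewer expressing cells and less RNA per cell cannot be told apart.

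**Figure D1:**
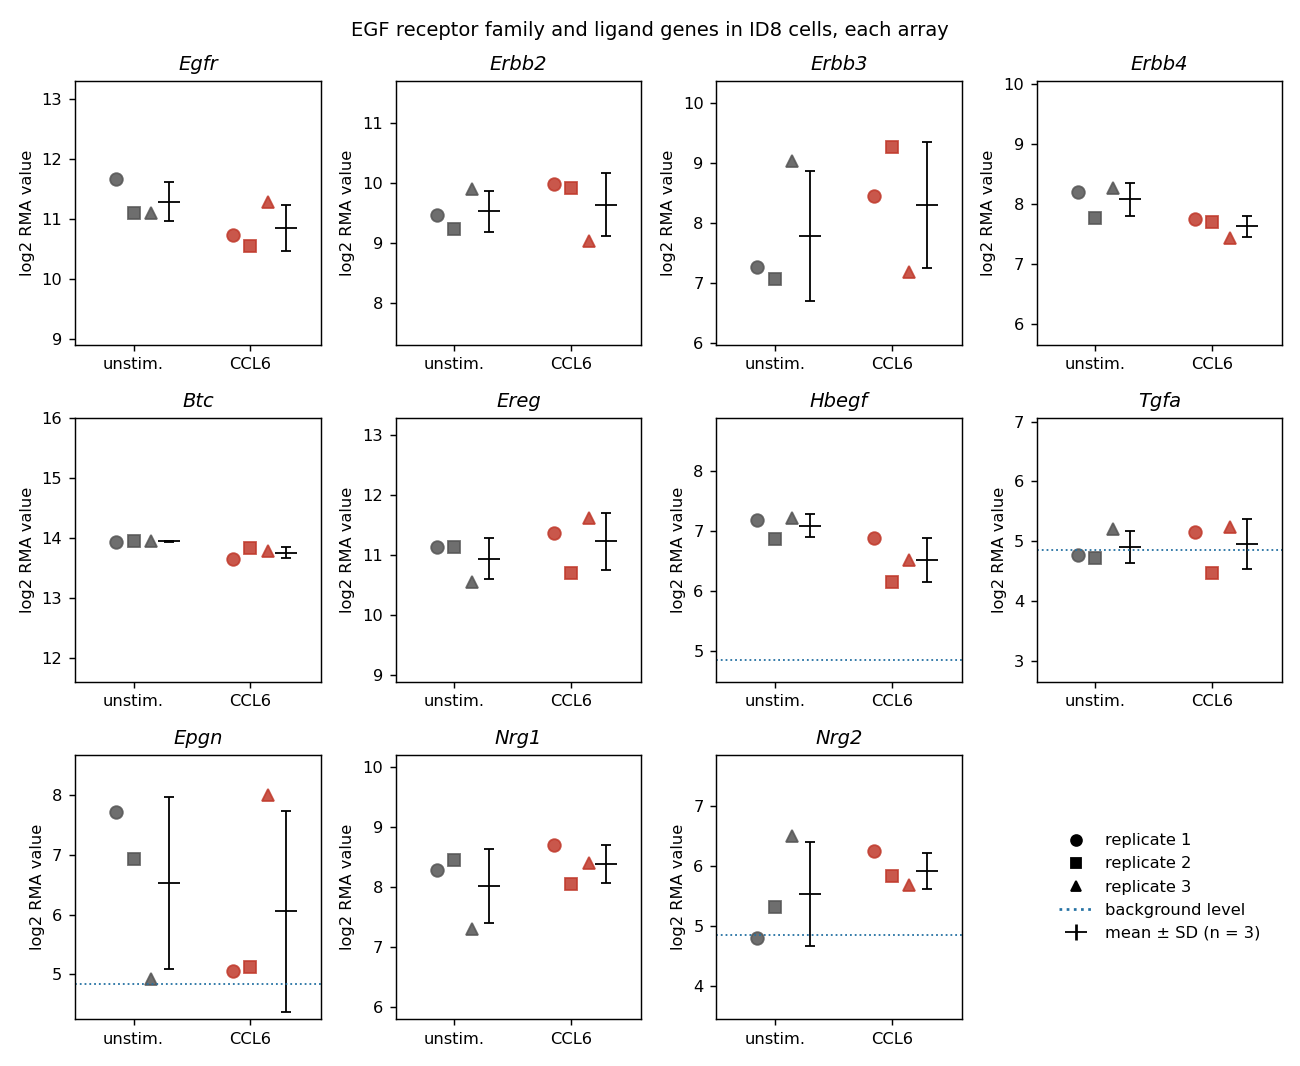
Log2 RMA values of the measured EGF receptor family and ligand genes above background, 1 panel per gene and 1 point per array (grey unstimulated, red CCL6; circle, square and triangle are replicates 1, 2 and 3), with mean and SD of 3 arrays beside them. Every panel spans the same number of log2 units around the middle of its own values. On that scale Btc is seen to vary least and Epgn and Erbb3 most. The dotted line is the background level of 4.85, which falls within the panels of Hbegf, Tgfa, Epgn and Nrg2 only.

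Egfr, the receptor that gives the family its name, was somewhat lower on average after CCL6. It read 11.66, 11.10 and 11.10 in unstimulated replicates 1 to 3 and 10.73, 10.54 and 11.28 after CCL6. CCL6 replicate 3 lay inside the unstimulated range and the other 2 treated cultures lay below it. The means were 11.29 ± 0.32 (SD, n = 3) and 10.85 ± 0.38 (SD, n = 3). The log2 difference was -0.43 (SE 0.29), with a 95% interval of -1.09 to 0.23 and a limma adjusted p of 0.999. Leaving out 1 array moved this difference between -0.65 without CCL6 replicate 3 and -0.25 without unstimulated replicate 1. The promoter of Egfr is shown because the gene is the main receptor of the ligands below. These are the 250 bases before its start in RefSeq, build GRCm38.p6, chr11:16751953-16752202, plus strand, with the GC box in capitals:
Egfr promoter: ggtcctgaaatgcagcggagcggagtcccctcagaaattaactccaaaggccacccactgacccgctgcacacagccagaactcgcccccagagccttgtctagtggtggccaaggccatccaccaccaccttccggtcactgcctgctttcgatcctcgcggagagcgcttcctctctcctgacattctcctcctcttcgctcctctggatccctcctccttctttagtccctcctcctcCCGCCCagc
The GC box, a site of SP1-type factors, was searched as GGGCGG on both strands and was found 1 time in this window. It occurred in 32.7% of 32851 such windows of the RefSeq table. The window held no TATA box, searched as TATAAA on both strands, which 12.4% of windows had.

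Erbb2, the receptor without a ligand, did not follow the treatment. It read 9.47, 9.24 and 9.91 in unstimulated cultures and 9.98, 9.92 and 9.03 after CCL6. CCL6 replicate 3 was the lowest of all 6 arrays and CCL6 replicate 1 the highest. The log2 difference was 0.11 (SE 0.33, 95% interval -0.63 to 0.85). It turned negative without unstimulated replicate 2, at -0.04, and without CCL6 replicate 1 or 2, at -0.06 and -0.03. Grb7, the adaptor gene that neighbours ERBB2 in the human amplicon, was not above background in either group, with means of 4.56 and 4.45.

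Erbb3, the neuregulin receptor that works through its partners, varied more between cultures of 1 group than between the groups. It read 7.27, 7.08 and 9.04 in unstimulated cultures and 8.46, 9.27 and 7.18 after CCL6. In both groups the arrays were split, with unstimulated replicate 3 and CCL6 replicates 1 and 2 high and the other 3 low. The pooled SD within groups was 1.07, and 97.4% of the probe sets above background had a smaller one. The log2 difference of 0.51 (SE 0.63) had a 95% interval of -0.93 to 1.94, which reaches from 1.90-fold lower to 3.85-fold higher expression. The difference ran from 0.024 without CCL6 replicate 2 to 1.13 without unstimulated replicate 3, and was 1.07 without CCL6 replicate 3. The first principal component carried 50.8% of the variance and split the arrays into the same sets of 3. With a term for these array sets in the fit, the difference was -0.084 (SE 0.28). The sets were derived from these same values, so a smaller SE for a gene that they split was built in. Only 7.82% of the squared deviations of Erbb3 over the 6 arrays lay between the treatment groups, where the median probe set above background had 10.6%.

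Among the ligands, Btc (betacellulin) stood out for how little it varied. It read 13.95, 13.95 and 13.96 in unstimulated cultures and 13.65, 13.84 and 13.79 after CCL6. All treated cultures lay below all unstimulated ones, in a range of only 0.30 over the 6 arrays. The unstimulated mean was 13.95 ± 0.006 (SD, n = 3) and the CCL6 mean 13.76 ± 0.10 (SD, n = 3). Of the probe sets above background, 0.494% had a smaller pooled SD. The difference of -0.19 corresponds to 1.14-fold lower expression, and 45.3% of probe sets above background had a smaller absolute difference. How far this difference exceeded the error depended on the test. Limma, which draws the variance of each probe set toward that of the others, gave an SE of 0.22, an interval of -0.68 to 0.31 and an unadjusted p of 0.409, whereas the methods' t-test gave an unadjusted p of 0.0299 and a Benjamini-Hochberg adjusted p of 0.998. With 3 arrays per group an exact permutation test, which was not run, cannot give a two-sided p below 0.1. Any gene without overlap would reach that value. The difference kept its sign when each array was left out in turn, from -0.23 to -0.13.

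Hbegf (HB-EGF), an early response gene in many cells and the receptor for diphtheria toxin in humans, had the largest mean difference of the 7 genes. It read 7.18, 6.87 and 7.21 in unstimulated cultures and 6.89, 6.16 and 6.52 after CCL6. The groups overlapped by a narrow margin, since unstimulated replicate 2 lay just below CCL6 replicate 1. The means were 7.09 ± 0.19 (SD, n = 3) and 6.52 ± 0.37 (SD, n = 3). Expression was 1.48-fold lower on average, a log2 difference of -0.57 (SE 0.27) with an interval of -1.18 to 0.05. The limma adjusted p was 0.999. The difference remained negative without any 1 array, from -0.75 without CCL6 replicate 1 to -0.38 without CCL6 replicate 2. It was also close to the same, at -0.60, with the term for the array sets.

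Ereg (epiregulin) was slightly higher on average after CCL6. It read 11.13, 11.14 and 10.54 in unstimulated cultures and 11.36, 10.70 and 11.62 after CCL6. CCL6 replicates 1 and 3 lay above all unstimulated cultures and CCL6 replicate 2 below 2 of them. The log2 difference was 0.29 (SE 0.31, 95% interval -0.42 to 1.00), and it was 0.49 (SE 0.26) with the array set term. It ran from 0.09 without unstimulated replicate 3 or CCL6 replicate 3 to 0.55 without CCL6 replicate 2.

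Tgfa (TGF-alpha) read 4.78, 4.71 and 5.21 in unstimulated cultures and 5.16, 4.47 and 5.24 after CCL6. Readings on both sides of the background level occurred in both groups. The log2 difference was 0.06 (SE 0.29, 95% interval -0.60 to 0.72) and changed sign when any of 4 arrays was left out.

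**Figure D2:**
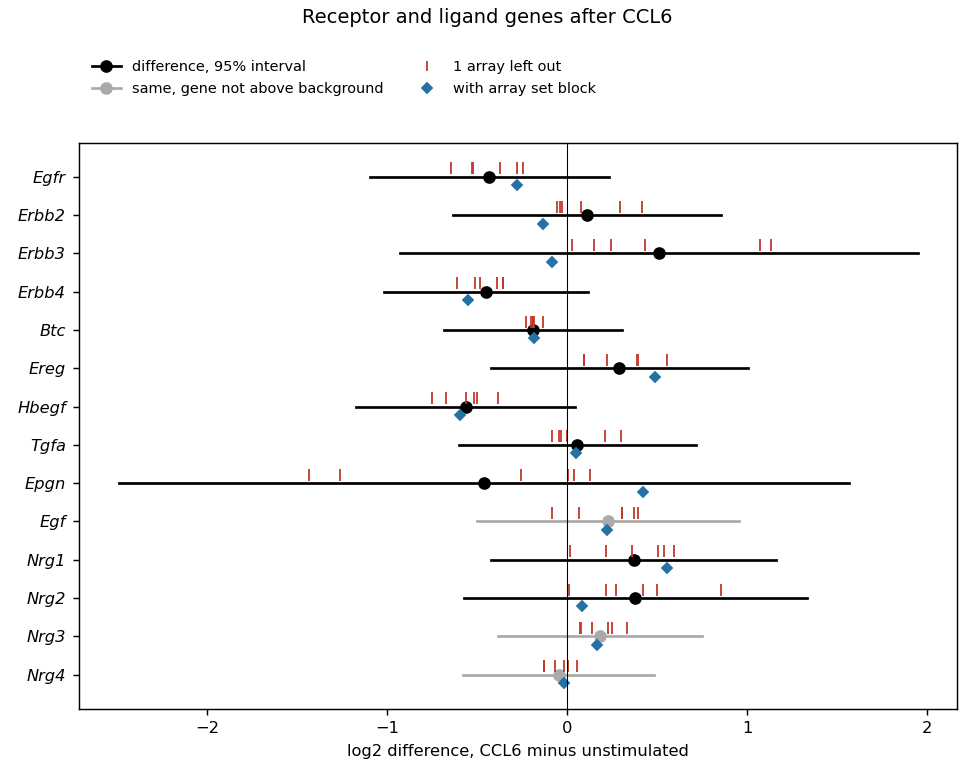
Log2 difference of CCL6 minus unstimulated cultures for each receptor and ligand gene (point) with the 95% interval from limma (line), grey where the gene was not above background in either group. Red ticks are the 6 fits without 1 array and the blue diamond is the fit with a term for the 2 array sets. All intervals include 0, and the diamonds of Erbb2, Erbb3 and Epgn lie on the other side of 0 from their points.

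The receptor and ligands outside the 8 named genes completed the family. Erbb4, the receptor for neuregulins and betacellulin, read 8.21, 7.76 and 8.28 in unstimulated cultures and 7.75, 7.70 and 7.43 after CCL6. The groups did not overlap, with CCL6 lower, as was the case for 4.41% of all probe sets. However, the lowest unstimulated and the highest treated value of Erbb4 nearly touched. The log2 difference was -0.45 (SE 0.25, 95% interval -1.02 to 0.11) with a limma adjusted p of 0.999. With the array set term it was -0.55 (limma, p 0.0479 before and 0.795 after adjustment). In that fit 1365 of 22206 probe sets had an unadjusted p under 0.05, and its array sets were derived from these same values. Nrg1 (neuregulin 1) read 8.29, 8.45 and 7.30 without CCL6 and 8.70, 8.06 and 8.40 with it, a difference of 0.37 (SE 0.35). Without unstimulated replicate 3, its lowest array, the difference of Nrg1 was 0.015, and without unstimulated replicate 2 it was 0.59. Nrg2, at 4.80, 5.32 and 6.49 against 6.24, 5.82 and 5.68, differed by 0.38 (SE 0.42). The difference of Nrg2 was 0.0081 without unstimulated replicate 1 and 0.079 with the array set term. Without unstimulated replicate 3 it was 0.86, where the unadjusted p was 0.0224 and the adjusted p 0.914 (limma). In that fit 1005 of 22206 probe sets had an unadjusted p under 0.05. Nrg1 and Nrg2 overlapped between groups. Egf itself, Nrg3 and Nrg4 were not above background in either group, and such readings cannot separate a low level from none. Of the 7 genes 4 were higher and 3 lower on average, and 0 passed an unadjusted p under 0.05, against 3.08% of all probe sets. Their median difference was 0.18, and 0.015 without unstimulated replicate 3.

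Epgn (epigen), a low-affinity ligand of EGFR, had the widest range in the family. It read 7.70, 6.93 and 4.92 in unstimulated cultures and 5.06, 5.12 and 7.99 after CCL6. Unstimulated replicate 3 and CCL6 replicates 1 and 2 lay close to the background level, and the other 3 arrays lay 1.81 or more above them. Of the probe sets above background 99.5% had a smaller pooled SD within groups. The log2 difference of -0.46 (SE 0.89) spanned -2.49 to 1.56 and became 0.42 (SE 0.29) with the array set term. As for Erbb3, the smaller SE was built in, since the array sets were derived from these same values.

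Epgn, Ereg, Areg and Btc are neighbours on mouse chromosome 5, in this order, with 2 long noncoding RNA genes and 1 small nuclear RNA gene as the only other annotated genes between them in RefSeq. Their arrays did not move alike. Across the 6 arrays Epgn spanned 3.07, Ereg 1.08 and Btc 0.30 on the log2 scale. The promoters of the most and the least variable of them are shown for that contrast, as the 250 bases before each start in RefSeq, build GRCm38.p6. That of Epgn is chr5:91027267-91027516 on the plus strand and that of Btc is chr5:91402995-91403244 on the minus strand, both written 5′ to 3′, with the TATA box in capitals:
Epgn promoter: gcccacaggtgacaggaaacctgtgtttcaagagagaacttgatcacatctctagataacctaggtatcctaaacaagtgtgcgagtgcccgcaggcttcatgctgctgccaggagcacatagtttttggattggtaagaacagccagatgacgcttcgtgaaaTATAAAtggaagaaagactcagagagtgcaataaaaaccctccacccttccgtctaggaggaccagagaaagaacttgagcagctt
Btc promoter: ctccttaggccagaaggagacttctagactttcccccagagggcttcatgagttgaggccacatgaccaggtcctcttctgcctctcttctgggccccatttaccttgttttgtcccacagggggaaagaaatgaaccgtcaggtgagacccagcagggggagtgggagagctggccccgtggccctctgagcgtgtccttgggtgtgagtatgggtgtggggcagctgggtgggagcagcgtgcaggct
Epgn had 1 match to the TATA box letters and a GC content of 46.8%, against a median of 52.4% over all windows. Matches were taken anywhere in the 250 bases, whatever their distance from the start. Btc had no TATA box, no GC box and a GC content of 59.6%. Neither held a cyclic AMP response element, searched as TGACGTCA (1.55% of windows), an AP-1 site, searched as TGANTCA (6.75%), or an E2F-like site, searched as TTTNGCGC (1.13%), each on both strands. A match of letters does not show that a factor binds, and a link between these promoters and the spread of the genes was not tested. Of the 8 genes 5 had a promoter in the table used here, those of Egfr, Erbb2, Areg, Tgfa and Btc.

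The array-to-array pattern of the family was set beside the proliferation genes because Erbb3 and Epgn split the arrays in the same way. Unstimulated replicate 3 and CCL6 replicates 1 and 2 had the highest proliferation means, and these 3 arrays are not a treatment group. Of the 11 family genes above background, 3 read higher on all of them than on the other 3 arrays, namely Erbb2, Erbb3 and Nrg2. The same was true of 18.1% of all probe sets above background. The lower direction held for Egfr and Epgn, and for 14.6% of all probe sets above background. For Egfr the gap was only 0.007, whereas it was 0.44 for Erbb2, 1.19 for Erbb3 and 1.81 for Epgn. Within these 3 arrays Erbb3 read 9.04 without CCL6 and 8.46 and 9.27 with it, and within the other 3 it read 7.27 and 7.08 without and 7.18 with it. Epgn read 4.92 without and 5.06 and 5.12 with CCL6 in the first set, and 7.70 and 6.93 without and 7.99 with it in the second. In each set Erbb3 thus had treated and untreated values that interleaved, while the treated values of Epgn lay above the untreated ones in both. The part of proliferation in these values was not tested.

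**Figure D3:**
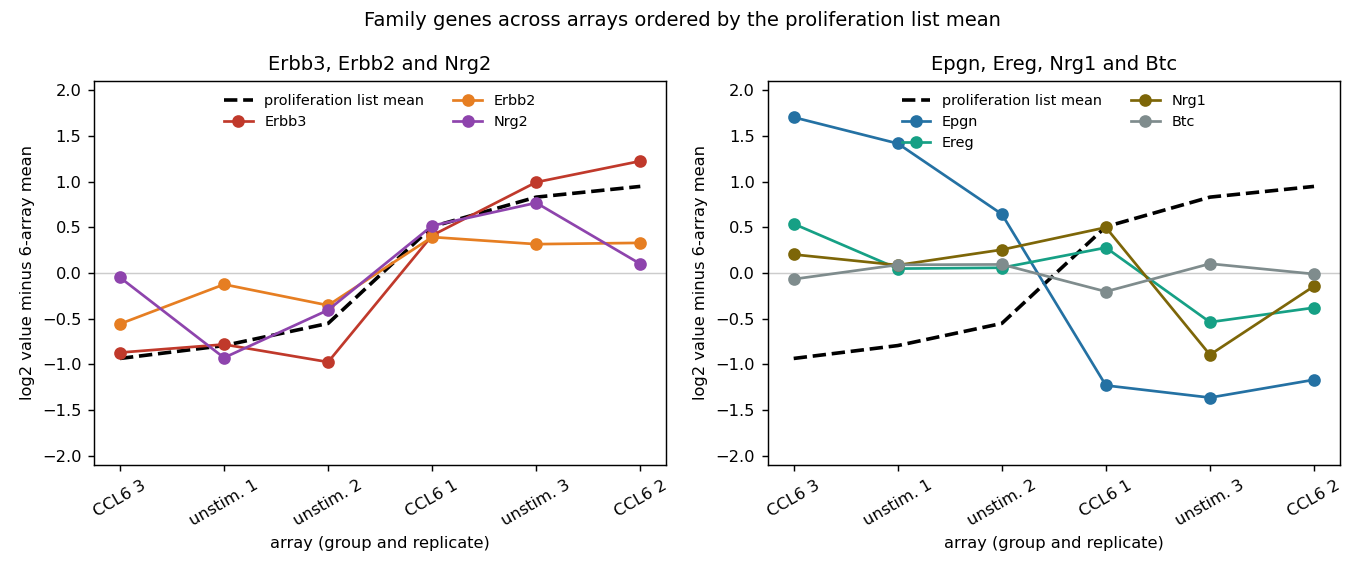
Log2 values of 7 family genes, each minus its mean over 6 arrays, with the arrays ordered by the mean of 11 proliferation genes (dashed line, also minus its mean). Erbb3 runs with the dashed line, with 1.19 between its 2 sets of arrays, Epgn runs against it with 1.81 between them, and Btc stays within 0.30 throughout.

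Genes with the most similar profile were sought for the 4 members that spanned at least 1 log2 unit, among 11267 named genes above background. Likeness was the root mean square difference over 6 arrays after each gene was centred on its own mean. Nearest to Egfr were Rab3d (0.02), a secretory vesicle GTPase, Ilvbl (0.08) and Srxn1 (0.09), a redox enzyme. The deviations of Egfr itself had a root mean square of 0.36. Nearest to Erbb3, with 0.91, were Rad54l2 (0.06), Slc30a1 (0.10), a zinc exporter, and Lpl (0.13), lipoprotein lipase. Nearest to Ereg, with 0.37, were Marco (0.08), a scavenger receptor gene, Ghdc (0.08) and Scyl3 (0.09), and nearest to Hbegf, also with 0.37, were Nudt5 (0.06), Ak5 (0.07), an adenylate kinase, and Fam83g (0.08). Marco passed the background filter only through the CCL6 group, at 5.14, 4.32 and 5.19, and read 4.67, 4.81 and 4.25 in unstimulated cultures. With 6 arrays and so many candidates, close profiles are a description of these arrays only.

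Ligands need release before they act, and the sheddase genes showed no call. Of 11 genes of ligand release 7 were above background, where 56.5% of all probe sets were. Of the 11, 6 were higher and 5 lower on average, and the median difference was 0.13. Of these genes 0 passed an unadjusted p under 0.05, against 3.08% of all probe sets. Adam17, the main sheddase of Areg, Hbegf and TGF-alpha, read 12.21, 12.64 and 12.07 without and 11.95, 12.49 and 12.87 with CCL6, a difference of 0.13 (SE 0.30). Adam10, the main sheddase of betacellulin and EGF, differed by -0.17 (SE 0.28) and Adam9 by 0.19 (SE 0.23). Groups overlapped for all 3. Rhbdf1 and Rhbdf2 encode iRhoms, which carry ADAM17 to the cell surface. Rhbdf1 read 9.71, 9.22 and 9.38 without and 9.37, 8.23 and 8.56 with CCL6, a difference of -0.71 (SE 0.33, unadjusted p 0.0595 and adjusted p 0.999 with limma). Rhbdf2 differed by 0.46 (SE 0.45).

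Genes that restrain the receptors or sort them for degradation were split at 8 higher and 11 lower among 19 measured, with a median of -0.05. None passed an unadjusted p under 0.05, against 3.08% of all probe sets. Errfi1 (MIG6), a feedback inhibitor that binds the EGFR kinase domain, read 11.01, 11.22 and 10.75 without and 10.85, 11.33 and 11.45 with CCL6. Its difference of 0.22 (SE 0.26) left the groups overlapping. Rnf41 (NRDP1), the ubiquitin ligase that removes ERBB3, read 13.22, 12.78 and 12.84 without and 12.52, 12.17 and 12.64 with CCL6. Its difference was -0.50 (SE 0.25, limma unadjusted p 0.0782). It was the 1 gene of 19 without overlap, where 4.41% of all probe sets were lower in this way and 3.77% higher. Stam, part of the endosomal sorting complex, differed by 0.85 (SE 0.38), Sh3kbp1 (CIN85), a partner of CBL, by 0.65 (SE 0.78), and the endocytic adaptor gene Epn1 by -0.37 (SE 0.26).

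Adaptors and effectors that bind the active receptors had a median difference of 0.039, with 11 of the 20 higher and 9 lower. None passed an unadjusted p under 0.05, against 3.08% of all probe sets. Without overlap 1 gene was higher and 1 lower, where 3.77% and 4.41% of all probe sets were. Sos1, the exchange factor that activates RAS, was the higher one, at 11.93, 12.36 and 12.18 without and 12.45, 12.58 and 12.65 with CCL6 (difference 0.40, SE 0.23). Its paralog Sos2 differed by 0.61 (SE 0.41), the phosphatase gene Ptpn11 (SHP2) by 0.88 (SE 0.41) and the EGFR substrate gene Eps8 by 0.89 (SE 0.52), each with overlap. Rasa1, which encodes a RAS GTPase-activating protein, was the lower one, at 10.94, 11.10 and 11.26 without and 10.93, 10.90 and 10.82 with CCL6 (difference -0.22, SE 0.22).

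Of 17 measured genes that EGF receptor signalling can induce, 11 were higher and 6 lower, with a median of 0.12. This median had no settled direction, at -0.21 with the array set term, -0.13 without unstimulated replicate 2 and 0.43 without CCL6 replicate 3. At an unadjusted p under 0.05 there was 1 higher gene, Vegfa, and 1 lower gene, Fos, where 1.28% and 1.81% of all probe sets passed in these directions. Neither passed the adjusted threshold (limma adjusted p 0.999 for both). Vegfa read 11.44, 12.14 and 12.72 without and 12.63, 13.45 and 12.77 with CCL6, a difference of 0.85 (SE 0.37) with overlap. The limma unadjusted p of Vegfa was 0.04995, only just under the threshold, and that of Fos was 0.0410. Dusp4, a phosphatase of ERK, was the 1 higher gene without overlap, with a difference of 0.68 (SE 0.30). Its highest unstimulated and lowest treated values nearly touched, at 10.152 and 10.157. Fos, at 7.65, 6.10 and 5.85 without and 5.46, 5.79 and 5.04 with CCL6, was the 1 lower gene without overlap. The shares of all probe sets without overlap were 3.77% higher and 4.41% lower. Junb differed by -0.53 (SE 0.35). All treated cultures were taken at 6 h, and earlier changes were not measured.

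**Figure D4:**
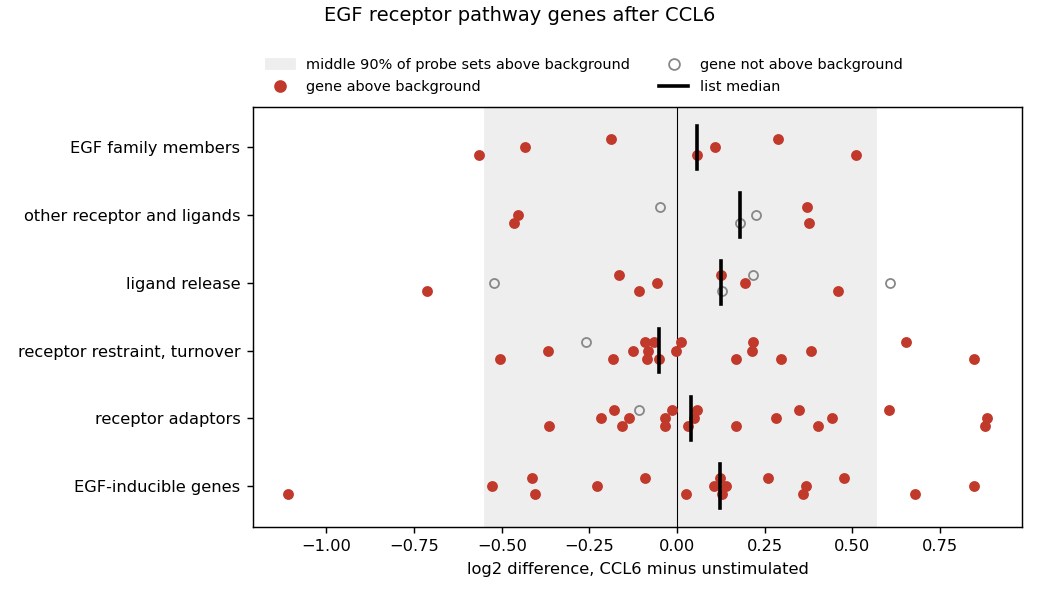
Log2 difference of CCL6 minus unstimulated cultures for each gene of 6 lists, filled red where the gene was above background and open grey where it was not, with the list median as a black bar. The grey band holds the middle 90% of probe sets above background, and the medians lie between -0.05 and 0.18.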

How the data were processed

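Total RNA of 6 ID8 cultures was hybridised to Clariom S mouse arrays. The deposited values are log2 values that the authors made with RMA, per the labels. The software version and filters are not given in the sources used here. Values ran from 1.93 to 19.2, from which log base 2 was inferred. Since RMA aligns the array distributions, a global shift in expression is removed. No further normalization was applied. Of 22206 probe sets, 19572 had 1 gene symbol and 2634 were unnamed here. Promoter sequences were read from the RefSeq table of GRCm38.p6.

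The limma package (3.58.1, under R 4.3.3) was used to compare the groups by lmFit and eBayes across all probe sets. Tests were two-sided, p-values were adjusted by Benjamini-Hochberg, and 0.05 was the threshold. The study's general statistics name a t-test, run here as an alternative called the methods' t-test, and no model particular to the arrays. The 8 genes, the other lists and the tests were chosen with earlier results of these data known. All genes of the receptor and ligand family were named, and from each other list up to 4 genes above background with the smallest unadjusted p, plus Adam10, Adam17 and Errfi1. No list received a set test. Rasa1 and Grb7 were named after their values were seen. Alternatives were quantile, loess and median normalization, filters on dim and unnamed probe sets, a variance trend, array weights, the replicate number or array set as a block, the methods' t-test and leaving out each array.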

Additional observations from a re-analysis of the deposited data

How the results depend on the processing

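No alternative gave any of the 7 measured genes an adjusted p under 0.05 (lowest 0.795, highest 1.00, over 112 values). Egfr, Ereg, Hbegf and Btc kept their sign in all alternatives. With the array set block Erbb2 turned to -0.14 and Erbb3 to -0.084. Without 1 array Erbb2 ran from -0.059 to 0.42 and Tgfa from -0.086 to 0.30. For the other ligands the same alternatives were added after the data were seen. Epgn turned to 0.42 with the array set block, and without 1 array it ran from -1.43 to 0.13, Egf from -0.087 to 0.39 and Nrg4 from -0.13 to 0.055. Values on the other side of 0 from the full fit were -0.040, -0.059 and -0.028 for Erbb2, -0.0037, -0.037, -0.044 and -0.086 for Tgfa, 0.13, 0.035 and 0.0041 for Epgn, -0.087 for Egf, and 0.055 and 0.0038 for Nrg4. Over all probe sets the count at an unadjusted p under 0.05, 685, became 344 among probe sets above background, which are fewer, and 1365 with the array set block, and ran from 428 to 1005 without 1 array (428 without unstimulated replicate 1 and 443 without CCL6 replicate 2). The count at an adjusted p under 0.05 was 0, also without any 1 array and at a threshold of 0.1, and 1 with the methods' t-test. The median of the other receptor and ligands was -0.041 among genes above background. That of ligand release became -0.056 there and 0.038 with array weights, and ran from -0.047 (without unstimulated replicate 1) to 0.13 without 1 array, and that of receptor restraint from -0.13 to 0.067, above 0 without unstimulated replicate 2 or 3 or CCL6 replicate 2. The median of receptor outputs, 0.12, was -0.21 with the array set block and ran from -0.13 to 0.43 without 1 array, and that of the other receptor and ligands from 0.015 to 0.25. Nrg1 ran from 0.015 to 0.59 and Nrg2 from 0.0081 to 0.86. The cause was not tested. Labels share replicate numbers, but deviations of same-numbered arrays from their group means did not correlate positively (r = -0.08, -0.23 and -0.66 over genes). They gave no sign of pairing. The array sets cross the numbers, so a weaker pairing could not be seen in this way. With the replicate block 474 probe sets had an unadjusted p under 0.05 and 0 an adjusted one, and no array correlated best with its own number. Hbegf reached an unadjusted p of 0.0498 after quantile normalization and 0.0291 without CCL6 replicate 1, with adjusted p of 1.00 and 0.995 (limma). In these fits 688 and 676 of 22206 probe sets had an unadjusted p under 0.05. Tgfa lay near background, and Egf, Nrg3 and Nrg4 were not above it.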
